A study of Mus musculus with 4 samples.

Results

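The cells compared here were group 2 innate lymphoid cells (ILC2s) of the mouse salivary gland, split by whether they held a Csf2 transcript. Csf2 encodes GM-CSF, a cytokine that acts on macrophages, granulocytes and dendritic cells. ILC2s are tissue-resident lymphocytes without an antigen receptor; they depend on the transcription factor GATA3, carry the IL-33 receptor ST2 (encoded by Il1rl1) and answer epithelial alarmins such as IL-33 with type 2 cytokines, among them IL-5 and IL-13. The question put to the data was which genes go with a Csf2 transcript inside that population. The members were chosen by measured values: barcodes of the Csf2+/- libraries with 500 UMIs (unique molecules counted) or more, 300 or more genes detected and no more than 10% of UMIs from mitochondrial genes, with at least 1 UMI each of Gata3 and Il1rl1, none of Cd3e, Cd3d, Cd3g or Cd79a, and at most 5 of C1qa, C1qb and C1qc together. That gate held 1659 cells of the 37644 cells of the series, 414 of them with at least 1 Csf2 UMI (Csf2-positive) and 1245 with none (Csf2-negative).

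The series held 4 single-cell 3′ RNA libraries of CD45+ cells, which were taken with magnetic beads and then by flow sorting from digested salivary glands of 20 day old mice. A female and a male library were made from Csf2+/- mice, and a female and a male library from Csf2-/- mice, labelled C56BL/6; each library pooled 2 mice. All mice therefore carried at least 1 mutant Csf2 allele, no Csf2+/+ library was analysed here, and what the mutant allele lacks is not given in the labels. The unit of replication is the library: each genotype had n = 2, and sex cannot be told apart from the difference between both libraries of a genotype. Libraries held 111981802 to 122366588 UMIs, gated cells had a median of 8094 to 10010 UMIs, and any pair of libraries shared 20 to 38 barcodes, under 0.4% of either.

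The gated cells carried the ILC2 markers they were named for. Outside the 2 genes of the gate, Il7r (the IL-7 receptor) had a UMI in 98.1% of gated cells of the Csf2+/- female library and in 96.6% of the male one, against 32.1% and 29.0% of cells outside the gate. Rora, a transcription factor that ILC2s need, was found in 98.4% and 98.5% of gated cells, and Arg1 in 83.0% and 81.8%. Il5 was at 133 CPM (counts per 1e6 UMIs of the summed cells) in the gated cells of the female library and 7.87 CPM outside the gate, and at 164 against 11.8 CPM in the male library.

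Csf2 lies in the type 2 cytokine cluster of mouse chromosome 11, with Il13 and Il5. The 250 bases before the annotated starts of these 3 genes are shown because Il13 and Il5 are the cytokine genes the comparison turns on. They are taken from RefSeq on GRCm38.p6, 5′ to 3′ in the direction of the gene, and the files themselves were made on GRCm39. Capitals mark AGATAA, a form of the GATA motif, and GGAAA, the core that NFAT and Ets factors share, on either strand (AGATAA reads TTATCT and GGAAA reads TTTCC on the opposite strand).
Csf2 (chr11:54249900-54250149, minus strand): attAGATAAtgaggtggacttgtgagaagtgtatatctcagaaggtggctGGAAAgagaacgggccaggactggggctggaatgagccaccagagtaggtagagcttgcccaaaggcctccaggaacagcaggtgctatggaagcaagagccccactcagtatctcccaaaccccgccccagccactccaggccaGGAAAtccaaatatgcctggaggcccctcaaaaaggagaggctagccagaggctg
Il13 (chr11:53634703-53634952, minus strand): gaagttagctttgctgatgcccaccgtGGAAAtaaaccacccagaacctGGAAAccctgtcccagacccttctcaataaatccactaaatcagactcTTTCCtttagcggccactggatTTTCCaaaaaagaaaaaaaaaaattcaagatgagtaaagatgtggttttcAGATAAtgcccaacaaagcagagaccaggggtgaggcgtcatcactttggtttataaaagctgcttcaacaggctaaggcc
Il5 (chr11:53720544-53720793, plus strand): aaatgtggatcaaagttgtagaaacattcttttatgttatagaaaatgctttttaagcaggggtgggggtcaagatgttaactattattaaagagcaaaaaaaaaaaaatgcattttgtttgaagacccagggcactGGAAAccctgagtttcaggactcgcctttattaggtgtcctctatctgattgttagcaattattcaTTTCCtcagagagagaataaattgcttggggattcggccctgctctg
AGATAA occurred once before Csf2, with its first base 247 bases before the start, and once before Il13, 81 bases before the start. It was not found in the Il5 window; 9.99% of 32851 windows of the same kind held it. GGAAA was found in 2 places before Csf2, 4 before Il13 and 2 before Il5, and 55.6% of all windows held it. TGATAA (7.94% of all windows) and the AP-1 motif TGANTCA (6.75%) were not in any of the 3 windows. These are letter matches within 250 bases and were not tied to binding in any file.

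Csf2 transcript was concentrated in the gated cells. In the Csf2+/- female library 200 of 835 gated cells held a Csf2 UMI (24.0%; 95% exact binomial interval 21.1 to 27.0%), and in the Csf2+/- male library 214 of 824 did (26.0%; 23.0 to 29.1%). In the Csf2-/- libraries the shares were 4.35% (38 of 873 cells) and 4.80% (67 of 1397), so some Csf2 sequence was still counted from the mutant allele. The intervals cover counting error only.

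Cells marked as other lineages also held some Csf2 UMIs. Among Csf2+/- cells with at least 10 C1q UMIs, a macrophage marker, 1.30% and 1.23% held a Csf2 UMI at a median of 13081 and 12675 UMIs. Among cells with at least 2 UMIs of the B cell gene Cd79a 1.11% and 0.575% did at 5415 and 5433 UMIs. In the Csf2-/- libraries the shares were 0.249% and 0.353% of the C1q cells and 0% of the Cd79a cells. Single Csf2+/- cells held up to 32 Csf2 UMIs in the C1q class and up to 7 in the Cd79a class. These shares therefore do not measure a detection background alone. With every gated cell thinned to 3000 UMIs the positive share was 11.8% and 16.7% in the Csf2+/- libraries and 1.17% and 1.39% in the Csf2-/- libraries. A Csf2-negative cell is therefore a cell in which no Csf2 UMI was counted, not one shown to lack the transcript. Just outside the gate, which is a description since these genes define it, cells with Gata3 but no Il1rl1 were positive in 1.38% and 1.42%, and cells with Il1rl1 but no Gata3 in 0.316% and 1.82%.

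**Figure D1:**
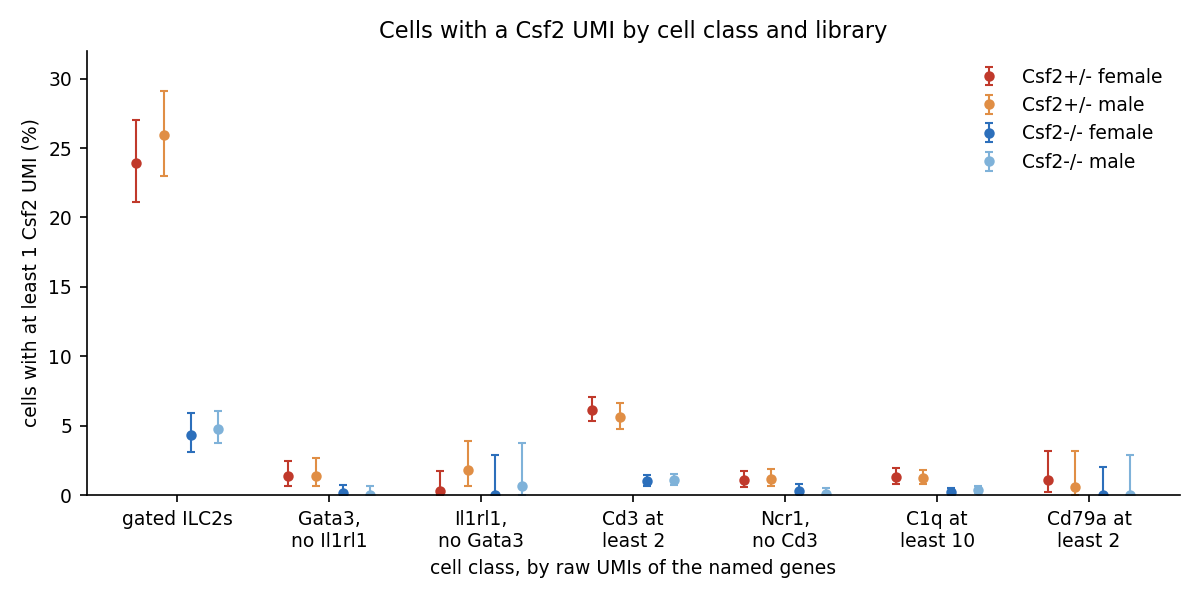
Percent of cells with at least 1 Csf2 UMI (vertical axis) in 7 cell classes (horizontal axis) of the 4 libraries; points are single libraries and bars are 95% exact binomial intervals. Gated ILC2s of the Csf2+/- libraries sit at 24.0% and 26.0%, and every other class of those libraries lies at or below 6.16%.

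Most positive cells held few Csf2 UMIs. In the female library 99 cells had 1 Csf2 UMI, 41 had 2 to 3 and 60 had 4 or more; in the male library the numbers were 90, 48 and 76. In the summed positive cells Csf2 stood at 424 and 393 CPM. The genes of the gate are given as description only: Gata3 was at 994 CPM in positive and 944 CPM in negative cells of the female library, and at 1155 and 895 CPM in the male. Il1rl1 was at 821 and 722 CPM in the female and at 952 and 951 CPM in the male library.

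Within each library positive cells were paired with negative cells of nearly the same total UMI count. This gave 199 pairs in the female library, where 1 positive cell had no match, and 214 in the male library. Median depths were 10816 and 10812 UMIs in positive and negative cells of the female library, and 9607 and 9594 UMIs in the male. UMIs were summed per library and state, and 9308 genes were tested over the 4 sums with edgeR's quasi-likelihood test, with the library as a block and Benjamini-Hochberg adjustment. At an adjusted p under 0.05, 48 genes were higher in Csf2-positive cells (0.516% of the genes tested) and 123 were lower (1.32%). The median log2 change over all tested genes was 0.0066. The fit has 1 residual degree of freedom, and its calls depended on the tool: DESeq2 on the same sums called 1 gene higher (0.0107%), Il13, and 4 lower (0.043%), Ccl6, Psap, Ifitm3 and Lyz2, named here after their values were seen.

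Il13, the IL-13 gene, rose most of the genes named. It stood at 184 CPM in Csf2-positive cells and 48.9 CPM in Csf2-negative cells of the female library, and at 205 and 55.8 CPM in the male library. Both positive sums lay above both negative sums, at 195 ± 14.7 CPM against 52.3 ± 4.92 CPM (SD, n = 2 libraries). The log2 change was 1.91 (SE 0.12, edgeR adjusted p = 1.18e-17), and by DESeq2 1.92 (SE 0.25, adjusted p = 1.52e-10).

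The rise of Il13 lay in the number of transcripts per cell more than in the number of cells. An Il13 UMI was found in 21.1% of positive and 17.6% of negative cells of the female library (95% intervals 15.7 to 27.4% and 12.6 to 23.6%). In the male library the shares were 23.4% and 17.8%, so the share was higher in positive cells of both libraries. Such intervals cover the counting error of cells within a library and do not test the states against each other. Cells with an Il13 UMI held 10.3 of them on average when Csf2-positive and 3.29 when Csf2-negative in the female library, and 9.42 and 3.37 in the male. Few cells carried much of it: the 5 cells with the most Il13 held 53.5% (female) and 48.4% (male) of the Il13 UMIs of the positive sums. Without the top 5 cells of each sum the levels were 85.7 against 28.9 CPM in the female and 106 against 28.8 CPM in the male library.

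Il5, the gene of the eosinophil growth factor IL-5, rose less and in another way. It stood at 190 CPM in positive and 130 CPM in negative cells of the female library and at 221 and 167 CPM in the male, a log2 change of 0.49 (SE 0.10, edgeR adjusted p = 0.0010). The share of cells with an Il5 UMI was 44.2% against 30.2% in the female library, where the intervals (37.2 to 51.4% and 23.9 to 37.0%) did not overlap, and 46.3% against 32.2% in the male, where they did not overlap either. Cells with an Il5 UMI held 5.08 and 5.12 in the female and 5.13 and 5.57 in the male library, in positive and negative cells. So in both libraries Il5 was found in more of the Csf2-positive cells, at about the same number of UMIs per cell.

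**Figure D2:**
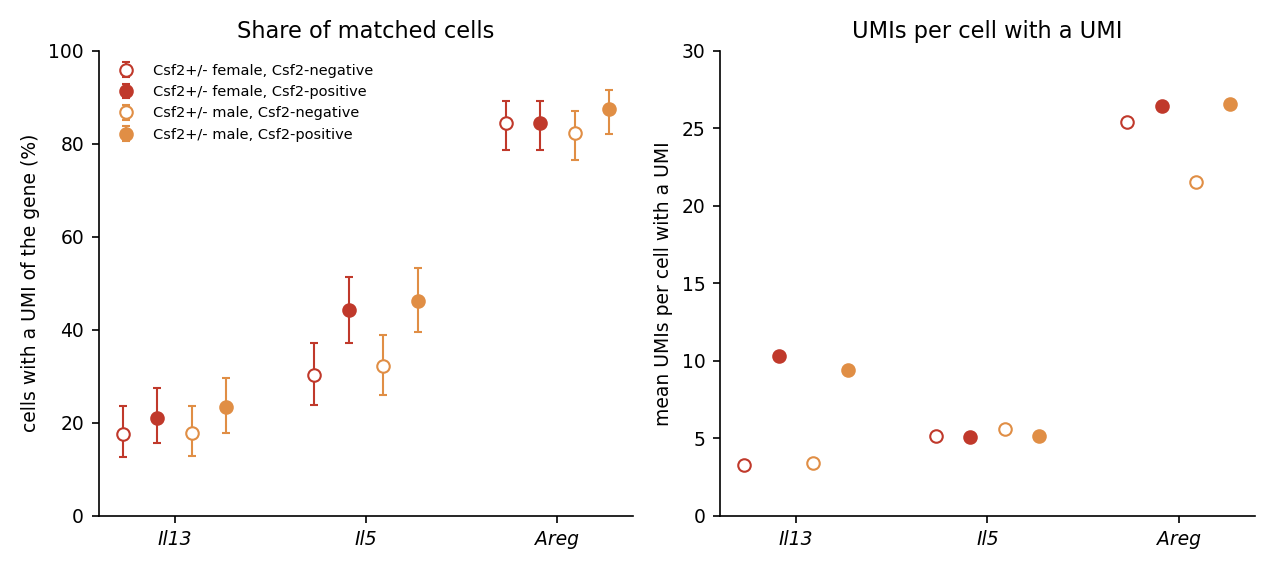
Left, percent of depth-matched cells with a UMI of Il13, Il5 or Areg, with 95% exact binomial intervals; right, mean UMIs of the gene per cell that has one; filled points are Csf2-positive and open points Csf2-negative cells of each Csf2+/- library. Il13 separates on the right (10.3 and 9.42 against 3.29 and 3.37), and Il5 on the left (44.2% and 46.3% against 30.2% and 32.2%).

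Several other secreted products, Areg, Il4, Il2, Calca and Il6, gave no call in the main comparison. Over 15 settings that kept both libraries, the main one included, Areg was called in 5 and Il2 in 4. Their log2 differences there were 0.14 to 0.42 and 0.56 to 0.96. Areg, which encodes the epithelial growth factor amphiregulin, was at 1883 against 1813 CPM in the female library and 2162 against 1652 CPM in the male, a log2 difference of 0.24 (SE 0.10, edgeR adjusted p = 0.64). Il4 stood at 19.9 and 14.4 CPM in the female library and 18.7 and 16.1 CPM in the male (edgeR adjusted p = 0.82). Il2, a T cell growth factor, was at 29.7 against 22.5 CPM and 27.0 against 10.9 CPM, a log2 difference of 0.80 with an edgeR adjusted p of 0.084. Calca, the gene of the neuropeptide CGRP, was higher in negative cells of the female library (371 against 276 CPM) and in positive cells of the male (388 against 327 CPM). Il6 also went in opposite directions in both libraries. Il9, Il3 and Penk were at or below 11 UMIs in every sum and were not tested. Of 23 cytokine genes listed 17 were tested, of which 3 rose, none fell, and the median log2 difference was 0.24 (over all genes 0.516% rose and 1.32% fell); the third riser was Ltb (lymphotoxin beta), at 601 against 518 CPM and 562 against 478 CPM (log2 change 0.24, edgeR adjusted p = 0.040).

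Chemokine genes went both ways. Of 14 listed 11 were tested, 2 rose and 3 fell (over all genes 0.516% rose and 1.32% fell). Of those tested 8 had values below 0, and the median log2 difference was -0.80. Cxcl10 rose from 139 to 208 CPM in the female and from 109 to 171 CPM in the male library (log2 change 0.64, SE 0.10, edgeR adjusted p = 4.03e-05). Ccl1, a ligand of the receptor CCR8, rose from 266 to 355 CPM and from 310 to 370 CPM (log2 change 0.35, SE 0.08, edgeR adjusted p = 0.0069), and was at -0.12 in cells thinned to 3000 UMIs. Ccl6 and Ccl9, which macrophages express, were among the 3 that fell and are given with the genes of other lineages.

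Among the neighbours of Csf2 on the chromosome, 12 of 18 listed genes were tested. Il13 and Il5 were the 2 that rose and none fell (over all genes 0.516% rose and 1.32% fell). The median log2 difference was 0.11. Il4 and Il3 belong to the same cluster and are given above.

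Levels by number of Csf2 UMIs are a description, since the classes were cut on Csf2 itself and these cells were not depth-matched. Il13 stood at 50.7 CPM in female gated cells without Csf2 and at 206 CPM in those with a single Csf2 UMI, just inside the threshold; in the male library the 2 values were 72.3 and 190 CPM. Il5 went from 113 CPM without Csf2 to 152, 196 and 242 CPM with 1, 2 to 3, and 4 or more Csf2 UMIs in the female library, and from 142 to 202, 238 and 232 CPM in the male. Areg was at 1673, 1505, 1739 and 2557 CPM in the same 4 classes of the female library and at 1693, 1964, 2020 and 2481 CPM in the male. Il13 did not follow the number of Csf2 UMIs: it was at 133 and 127 CPM with 2 to 3, below the cells with 1, and at 188 and 274 CPM with 4 or more.

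**Figure D3:**
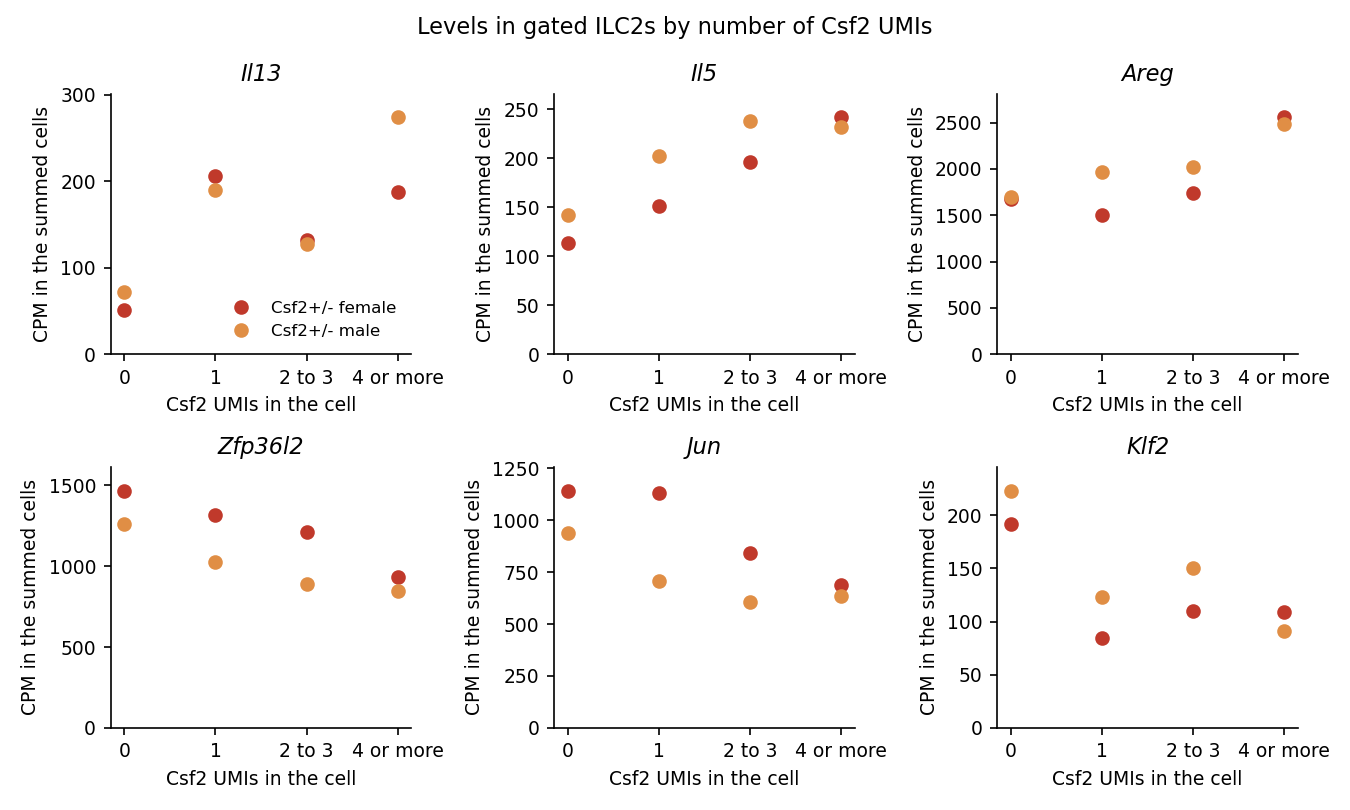
CPM of 6 genes (vertical axes, each from 0) in gated cells summed by their number of Csf2 UMIs (horizontal axes); each point is 1 Csf2+/- library. Il5 goes from 113 and 142 CPM without Csf2 to 242 and 232 CPM with 4 or more Csf2 UMIs, while Zfp36l2 goes from 1467 and 1260 to 932 and 847 CPM.

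None of the tested receptors by which ILC2s sense alarmins and growth cytokines was called higher in Csf2-positive cells. Il7r stood at 981 and 989 CPM in positive and negative cells of the female library and at 931 and 902 CPM in the male, a log2 difference of 0.04 (SE 0.06, edgeR). Il17rb, the IL-25 receptor, had a log2 difference of 0.04 (SE 0.15), and Klrg1, an inhibitory lectin receptor, 0.09 (SE 0.17). Il2ra (the high-affinity chain of the IL-2 receptor) differed by 0.17 (SE 0.07, edgeR adjusted p = 0.41) and Icos, a costimulatory receptor, by 0.10 (SE 0.07). Of 22 alarmin and interleukin receptor genes 19 were tested. None rose and 3 fell, namely Csf2rb, Il6ra and Il1rap (over all genes 0.516% rose and 1.32% fell). Csf2rb, the signalling chain of the GM-CSF receptor, was low in every sum, at 2.12 against 8.07 CPM in the female and 2.61 against 12.2 CPM in the male library. None of these 3 falls was called in the cells with few UMIs of other lineages described below, where Csf2rb could not be tested.

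Signalling and transcription factor genes among the named risers changed by small amounts. Jak2, a kinase of cytokine receptors, stood at 736 against 614 CPM in the female library and 782 against 609 CPM in the male (log2 change 0.33, SE 0.06, edgeR adjusted p = 0.00059). Rel, the NF-kB subunit c-Rel, was at 285 against 230 CPM and 301 against 236 CPM (log2 change 0.35, adjusted p = 0.014). Bhlhe40, a transcription factor with a known role in GM-CSF production by T cells, was at 560 against 464 CPM and 589 against 490 CPM (log2 change 0.29, adjusted p = 0.010). Nr4a1, a gene induced by receptor signalling, rose by 0.23 on the log2 scale and Gadd45b by 0.21. Hilpda, a lipid droplet protein named after its values were seen, rose by 0.27. In all of these genes the positive sum of a library was above its negative sum.

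By list, the counts stand beside 0.516% of all tested genes higher and 1.32% lower. Of 34 NF-kB and AP-1 genes 2 rose and 3 fell (median log2 difference 0.05); of 27 genes of the NFAT and calcium response 2 rose and none fell (0.10); and of 22 tested genes of the STAT5 response 2 rose and 1, Socs3, fell (0.09). Of 24 tested innate lymphoid transcription factor genes 1 rose and 2 fell (0.11). Rora rose by 0.16 on the log2 scale. Zeb2 fell by 1.02, and so did Id3, which was at most 8.92 CPM in any sum, by 2.59. Nfkb1 and Cish, a target of STAT5, gave no call (edgeR adjusted p = 0.24 and 0.77).

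Of the lists counted, that of cell cycle genes had the most risers. Of 30 proliferation genes, all tested, 6 rose (0.516% of all genes tested did) and none fell, with a median log2 difference of 0.22, and 16 were higher in positive cells of both libraries while 3 were lower in both. Top2a, the topoisomerase of dividing cells, stood at 162 against 104 CPM in the female and 113 against 68.5 CPM in the male library (log2 change 0.70, SE 0.11, edgeR adjusted p = 6.59e-05). Ccnb2, a mitotic cyclin, was at 26.7 against 12.3 CPM and 23.9 against 10.9 CPM (log2 change 1.14). Birc5, which encodes survivin, rose by 0.76 on the log2 scale, Stmn1 by 0.45 (-0.0053 with doublets removed) and Cdc20 by 1.20. The mitotic genes Cdca3, Cdca8, Prc1 and Nusap1, which are not in that list and were named for the size of their rise, rose by 0.82 to 1.03. The share of cells with a UMI did not rise for all of these genes. For Top2a it was 21.6% of positive and 12.1% of negative cells in the female library, and 17.8% and 14.5% in the male. For Birc5 it was 6.53% and 5.03% in the female library, but 4.21% and 5.61% in the male. Mki67, the gene of the proliferation antigen Ki-67, gave no call: it was at 72.1 and 71.4 CPM in the female library and at 64.0 and 43.2 CPM in the male. The remaining genes named for large rises were lower in level: Klk1 (a glandular kallikrein, at 4.67 to 27.6 CPM), Gldc, Zdbf2 and Wars2. The rise of Klk1 was mostly in the female library, at 27.6 against 4.67 CPM, while the male library had 20.9 against 13.1 CPM.

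Among the named genes that fell in Csf2-positive cells were 4 transcription or RNA regulators, of which the lowest sum was 98.0 CPM. Zfp36l2, an RNA-binding protein that shortens AU-rich transcripts (named after its values were seen), stood at 1174 against 1553 CPM in the female and 928 against 1210 CPM in the male library, a log2 change of -0.37 (SE 0.05, edgeR adjusted p = 2.81e-06). Jun, a subunit of AP-1, was at 930 against 1167 CPM and 658 against 841 CPM (log2 change -0.32, SE 0.06, adjusted p = 0.00020). Klf6 was at 816 against 1012 CPM and 768 against 899 CPM (log2 change -0.25). Klf2, a factor of resting lymphocytes, was at 98.0 against 162 CPM and 118 against 224 CPM (log2 change -0.81, SE 0.10). In each of these 4 genes both libraries went the same way. Zfp36l2 and Jun also fell with the number of Csf2 UMIs: Jun stood at 1142, 1132, 844 and 687 CPM in female cells with 0, 1, 2 to 3 and 4 or more Csf2 UMIs, and at 939, 708, 606 and 636 CPM in the male library.

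Jun, Socs3 and Nr4a1 are also in the list of genes that tissue digestion induces. Of the 25 genes in it 24 were tested, of which 1 (Nr4a1) rose and 3 fell, Jun and Socs3 among them. Over all genes 0.516% rose and 1.32% fell. The median log2 difference of the list was -0.09. In positive cells 15 of its genes were lower in both libraries and 3 were higher in both. The part of digestion in these differences was not tested.

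The genes named for the largest falls included genes known from macrophages, granulocytes and NK cells. Lpl (lipoprotein lipase) was at 2.12 against 38.7 CPM in the female and 15.7 against 72.0 CPM in the male library; Pltp, Ear2, Fcgr2b, Creb5 and the chemokine genes Ccl6 and Ccl9 fell by 1.97 to 2.67 on the log2 scale. Klra9, an NK cell receptor gene, was at 2.55 against 16.6 CPM and at 0 against 22.7 CPM. Ifitm3 was at 41.2 against 118 CPM and 63.6 against 145 CPM, and Psap at 198 against 335 CPM and 272 against 456 CPM, both named after their values were seen. Lyz2, the lysozyme gene of myeloid cells, was at 33.5 against 502 CPM in the female and 144 against 729 CPM in the male library (edgeR adjusted p = 0.72, DESeq2 adjusted p = 0.036).

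Marker lists of other lineages differed between the states to different degrees. The counts stand beside 0.516% of all tested genes higher and 1.32% lower. The 13 macrophage and monocyte markers summed to 148 and 266 CPM in positive cells and 663 and 991 CPM in negative cells of the female and male library; of 7 tested, 3 fell and all 7 were lower in both libraries. The 12 dendritic cell markers summed to 388 and 625 CPM in positive and 2074 and 996 CPM in negative cells; of 6 tested 1 fell, 4 were lower and 1 was higher in both libraries. The 12 NK and ILC1 markers summed to 217 against 248 CPM in the female and 83.1 against 371 CPM in the male library; of 11 tested 1 fell, 5 were lower and 1 was higher in both. The 9 eosinophil and neutrophil markers, none of them tested, summed to 1.27 against 2.12 CPM in the female and 3.05 against 208 CPM in the male library. B cell markers summed to 51.8 to 59.6 CPM and mast cell and basophil markers to 271 to 311 CPM in every sum, and no tested member of the B cell and mast cell lists was called. Over 20 UMIs per 10000 from these 6 lists together were found in 10 of 199 positive cells (5.03%) and 17 of 199 negative cells (8.54%) of the female library, and in 12 of 214 (5.61%) and 27 of 214 (12.6%) of the male.

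**Figure D4:**
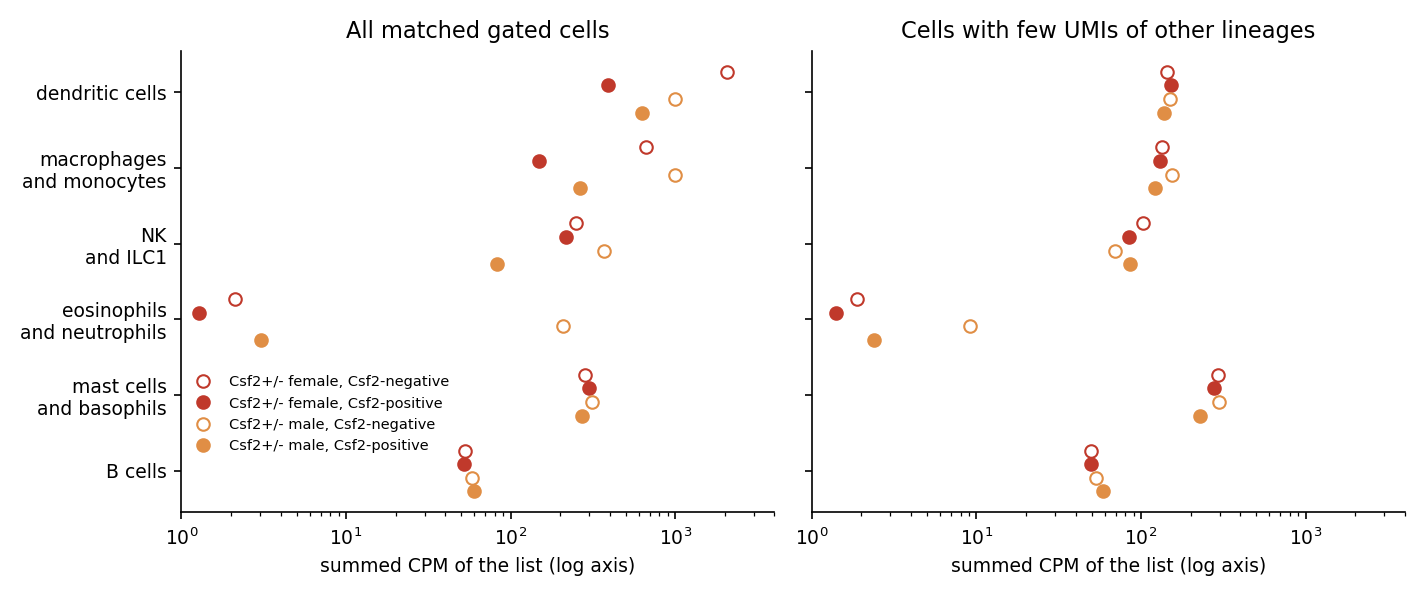
Summed CPM (horizontal log axes) of 6 marker lists in Csf2-positive (filled) and Csf2-negative (open) cells of each Csf2+/- library, in all matched cells (left) and in cells with at most 20 UMIs per 10000 from these lists (right). On the left the macrophage and dendritic cell lists lie lower in positive cells of both libraries; on the right the macrophage list spans 121 to 153 CPM.

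The comparison was therefore repeated on cells with at most 20 such UMIs per 10000, a limit chosen after seeing the data, which left 188 pairs in the female and 200 in the male library. There 8918 genes were tested, and edgeR called 1 higher (0.0112%) and 4 lower (0.0449%). The gene that rose was Il13, at 191 against 44.4 CPM in the female and 216 against 92.6 CPM in the male library (log2 change 1.61, SE 0.17, adjusted p = 0.011). The genes that fell were Zfp36l2 (log2 change -0.42, adjusted p = 0.0050), Jun (-0.47, 0.011), Klf6 (-0.38, 0.019) and Xcl1, a chemokine gene named after its values were seen (-1.78, 0.0050; in the whole gate -1.66, SE 1.38, adjusted p = 0.94). DESeq2 called none of 8918 genes there.

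Other genes of the whole gate did not pass the test in these cells. Il5 was at log2 0.48 (SE 0.09, edgeR adjusted p = 0.099), Cxcl10 at 0.54 (adjusted p = 0.090) and Klf2 at -0.68 (adjusted p = 0.099). Rora was at 0.03 (edgeR adjusted p = 0.99) and Zeb2 at -0.23 (adjusted p = 0.97). Top2a was at 0.31 (adjusted p = 0.76) and the proliferation list at a median of 0.16, with none of 30 called. All 48 genes called higher in the whole gate were also higher in these cells, at a median log2 difference of 0.38 against 0.49, and 1 of them was called. Of the 123 called lower, 61 could be tested there, 50 were lower and 3 of them were called. These cells come from the same gate on which both sets of genes were chosen. The kept direction is therefore not a separate test. Psap was at 0.0045, Ccl9 at 0.27 and Lyz2 at 0.27, while Ifitm3 was at -1.26 (adjusted p = 0.099). Il6ra was at -0.65 (edgeR adjusted p = 0.95) and Il1rap at -0.41 (adjusted p = 0.90). Of Lpl, Pltp, Ear2, Fcgr2b, Klra9, Csf2rb and Batf3 too few UMIs were left to test.

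**Figure D5:**
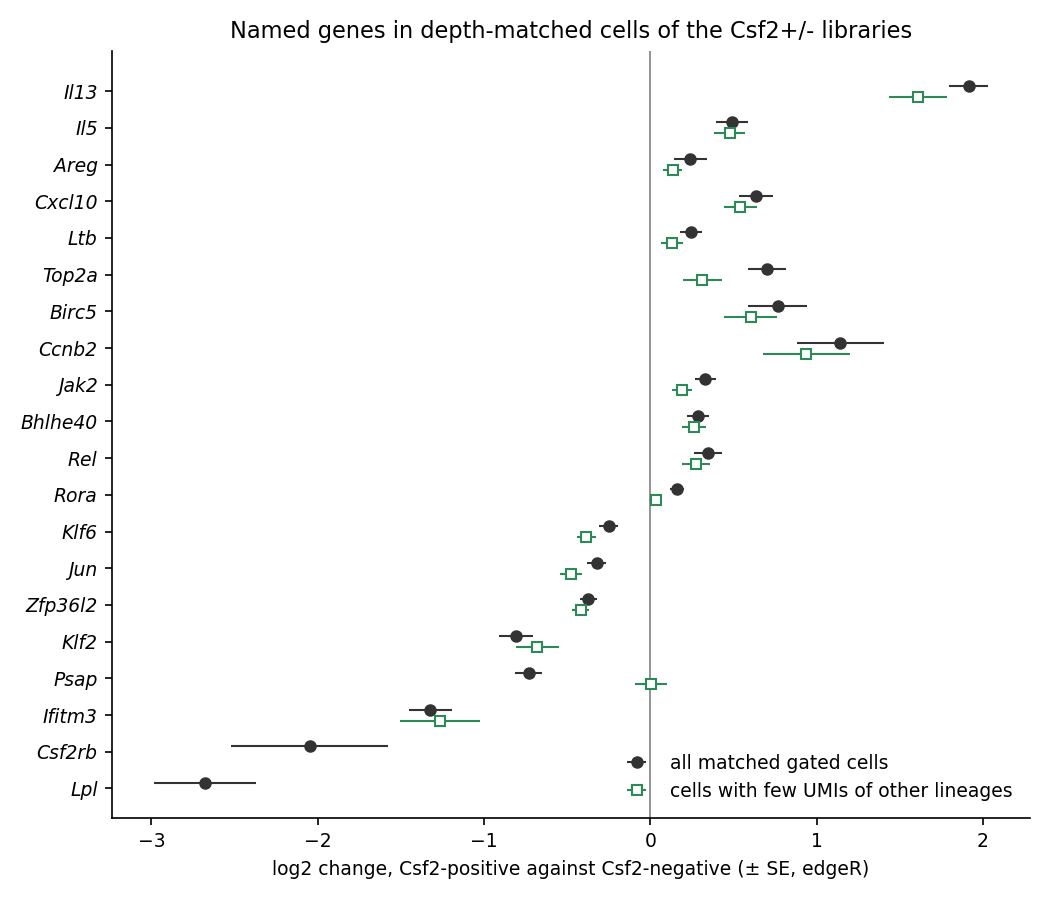
Log2 change between Csf2-positive and Csf2-negative cells (horizontal axis, ± SE derived from the edgeR F statistic) for 20 genes. Filled points are all matched gated cells. Open squares are cells with few UMIs of other lineages, not drawn where the gene could not be tested. Il13 stays at 1.61, Zfp36l2, Jun and Klf6 stay below 0, and Psap moves from -0.73 to 0.0045.

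The calls rested on both libraries together. With either Csf2+/- library left out, and the spread taken from the Csf2-/- libraries, no gene was called higher and 9 or 4 were called lower. Il13 kept its direction there but was not called, and the per-library log2 ratios were 1.91 in the female and 1.88 in the male library. Il13 was called by edgeR in most but not all settings: with 2 negative cells per positive its log2 difference was 1.56 (SE 0.44, adjusted p = 0.76), under a stricter gate 1.64 (SE 0.19, adjusted p = 0.064), and over the 14 alternatives that kept both libraries 1.56 to 1.92.

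The same split in the Csf2-/- libraries compared cells that held a transcript of the mutant allele with cells that did not. It rested on 38 and 67 pairs. None of 6180 genes tested was called by edgeR (0%), 251 had an unadjusted p under 0.05, and DESeq2 called none. Fits with either Csf2-/- library left out rested on the other alone, with the spread taken from the Csf2+/- libraries. Their calls are not read as results of this split. Il13 differed between both libraries: it was at 278 against 50.2 CPM in the female library, with an Il13 UMI in 16 of 38 positive and 4 of 38 negative cells, and at 104 against 138 CPM in the male, with one in 12 of 67 positive and 19 of 67 negative cells. Il5 also went opposite ways, at 111 against 151 CPM in the female and 237 against 92.2 CPM in the male library, and so did Top2a, at 140 against 111 CPM and 48.7 against 144 CPM. Cxcl10 was higher in positive cells of both, at 273 against 131 CPM and 323 against 175 CPM, and so was Jun, at 984 against 812 CPM and 927 against 886 CPM. None of these was called. Of the 30 proliferation genes 27 were tested in this split and none was called. Their median log2 difference was -0.60, against 0.22 for the list in the Csf2+/- libraries.

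Whether the split itself differed between genotypes was tested with an interaction term over the 8 sums. None of 9015 genes was called by edgeR (0%), 524 had an unadjusted p under 0.05, and DESeq2 called none. Leaving out a Csf2-/- library again left a single one of that genotype, so calls of those fits are not read as results. Of the 66 named genes tested, 14 went the same way in all 4 libraries. Another 13, Jun among them, went one way in both Csf2+/- libraries and the other way in both Csf2-/- libraries. Their interaction adjusted p-values by edgeR were 0.21 to 0.94, with Jun at 0.21. Many of the named genes were chosen on the Csf2+/- libraries, and the same count over all 9015 genes was not made. Neither count is therefore read as a result about these genes.

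Between genotypes, all gated cells of the Csf2-/- libraries were set against those of the Csf2+/- libraries. A log2 difference above 0 therefore means a higher level in the Csf2-/- libraries. Of 11506 genes tested 4 were called by edgeR (0.0348%), and none of the named genes was among them. Without the Csf2+/- female or male library 16 and 4 were called, and without the Csf2-/- female or male library 49 and 39. Il13 stood at 84.6 and 109 CPM in the female and male Csf2+/- libraries and at 102 and 120 CPM in the Csf2-/- libraries, a log2 difference of 0.18 (SE 0.13, adjusted p = 0.82). Il5 differed by -0.17 (adjusted p = 0.74) and Areg by 0.03 (adjusted p = 0.96). Zfp36l2 differed by -0.10 (adjusted p = 0.86) and Jun by 0.25 (adjusted p = 0.65).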

How the data were processed

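The authors deposited raw UMI counts per gene and barcode for 4 libraries; per the submitters' processing notes they were made with Cell Ranger 7.0.0 on GRCm39, and other steps are not given in the sources used here. The gene names and barcodes that label these deposited count matrices were used as written. The members and gene lists were chosen with earlier results of these data known. Each positive cell was matched within its library to 1 negative cell on the natural log of total UMIs without Csf2 (caliper 0.1, random order with seed 1); 1 positive cell had no match. Sums per library and state were normalised by TMM and tested with edgeR 4.0.16 (filterByExpr, robust quasi-likelihood, library as block, Benjamini-Hochberg), in R 4.3.3; DESeq2 1.42.0 was an alternative. The 10 genes of the gate and split and the mitochondrial genes were left out of tests. No doublets were removed in the main comparison; Scrublet (scanpy 1.11.5) served as an alternative. Other alternatives changed the normalisation, filter, block, matching, depth, Csf2 threshold and gate, or left out a library.

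Genes were named by a rule: among called genes that averaged 10 CPM or more and had the same sign in both libraries, the 12 largest rises and 8 largest falls; up to 3 called genes per list, by p; and a fixed set of ILC2 genes. Genes outside it (Zfp36l2, Xcl1, Hilpda, Ptgs2, Psap, Ifitm3 and Lyz2) were chosen after their values were seen.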

Additional observations from a re-analysis of the deposited data

Results flagged for a closer look

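A Csf2 signal was also present outside the gated cells. Among cells with at least 2 UMIs of the T cell receptor genes Cd3e, Cd3d and Cd3g, which the comparison did not use, 6.16% held a Csf2 UMI in the Csf2+/- female library (182 of 2956 cells) and 5.67% in the Csf2+/- male library (133 of 2347). The shares in the same cells of the Csf2-/- libraries were 1.02% (33 of 3227) and 1.10% (30 of 2728). Both Csf2+/- libraries lay above both Csf2-/- libraries; with 2 libraries per genotype the difference was not tested. These cells held 37.2% and 37.3% of all Csf2 UMIs of the Csf2+/- libraries, and the gated ILC2s held 49.5% and 44.5%.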

How the results depend on the processing

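With 4 sums and a single residual degree of freedom, the counts of genes called between Csf2-positive and Csf2-negative cells depended on how the spread was estimated. The 48 genes higher and 123 lower became 45 and 112 with RLE size factors, 49 and 123 with 2 to 1 matching, 56 and 129 with matching seed 2, 66 and 124 with no depth matching, 62 and 95 with doublets removed, 54 and 103 over genes averaging 10 CPM or more, and 77 and 180 with no low-count filter. They became 1 and 4 with DESeq2, 1 and 10 with no replicate block, 9 and 19 in cells thinned to 3000 UMIs, 3 and 21 with at least 2 Csf2 UMIs, and 0 and 1 under the stricter gate. In cells with few UMIs of other lineages they were 1 and 4, and 0 and 0 with DESeq2 there. Without a Csf2+/- library 0 were higher and 4 to 9 lower. The cause was not tested, apart from the fewer UMIs or cells that thinning, the higher Csf2 threshold, the gates and a left-out library leave by construction. The 48 higher genes kept their direction under DESeq2, in the stricter gate and in cells with few UMIs of other lineages, and 47 did with doublets removed. Of them 1, 0, 1 and 33 were called in these settings, in that order. The genes were chosen on the same sums or on cells of the same gate, so the kept direction is not a separate test.

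For the split in the Csf2-/- libraries, no depth matching gave 60 calls, few UMIs of other lineages 2, no replicate block 0, and a left-out library 114 to 164. For the difference between genotypes, no depth matching gave 16 calls, few UMIs of other lineages 21 and a left-out library 0 to 152. Between genotypes in all gated cells, DESeq2 gave 32 calls, no low-count filter 190, sex as replicate block 0, few UMIs of other lineages 0, doublets removed 3, and a left-out library 4 to 49. Thinning moved the share of gated cells with a Csf2 UMI to 11.8% and 16.7% in the Csf2+/- and 1.17% and 1.39% in the Csf2-/- libraries.

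Among called genes, the log2 change turned sign for Ccl9 (0.27, and 0.045 with DESeq2), Alox5ap (0.28 and 0.30) and Psap (0.0045 and 0.0054) in cells with few UMIs of other lineages, for Ccl6 in the stricter gate (0.21), for Ccl1 after thinning (-0.12) and for Stmn1 with doublets removed (-0.0053). Some genes with no call in the main comparison were called in part of the 15 settings that kept both libraries. These were Areg (5 settings), Il2, Xcl1 and Lyz2 (4 each), Nfkb1 and Mki67 (2 each) and Ptgs2 (1). Genes that were not called in the main comparison also turned sign. Lyz2 was at 0.24 in the stricter gate and at 0.27 and 0.26 in cells with few UMIs of other lineages, where Nfkb1 was at -0.020 by both tools, Arg1 at -0.0066 by both (-0.018 in the stricter gate) and Tcf7 at 0.077 and 0.047 (0.69 after thinning). Calca was at 0.0070 with no depth matching, 0.015 in the stricter gate and 0.26 without the female library (-0.43 without the male), and Il6 at 2.46 without the female and -2.27 without the male. Il17rb was at -0.24 with at least 2 Csf2 UMIs, -0.064 with doublets removed, -0.099 in the stricter gate, -0.096 and -0.092 in cells with few UMIs of other lineages and -0.18 without the male library. Il7r was at -0.081 after thinning, -0.061 with at least 2 Csf2 UMIs, -0.0062 with doublets removed, -0.023 in the stricter gate, -0.066 by both tools in cells with few UMIs of other lineages and -0.013 without the male library (0.062 without the female). Icos was at -0.056 with at least 2 Csf2 UMIs and -0.0070 without the male library (0.18 without the female), and Klrg1 at -0.014 with DESeq2 in cells with few UMIs of other lineages and -0.28 without the male library (0.34 without the female).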
